A study of Mus musculus with 8 samples.

Results

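The 8 genes described here, called defence genes below, are Prdx2, Srxn1, Gpx1, Gpx4, Cat, Sod1, Sod2 and Glrx5. All but Glrx5, which passes on iron-sulphur clusters, encode enzymes that remove peroxide or superoxide or restore such an enzyme. The 8 genes were taken by gene name from a count table of 56748 genes, in which each name had 1 row. All 8 passed the filter on low counts that left 14723 genes. Libraries came from peripheral blood mononuclear cells, the fraction of blood recovered on a density gradient, of wild-type male C57BL/6J mice on a basal diet, 8 weeks old. There were 3 libraries from mice gavaged daily for 1 month with fucoidan, a sulphated seaweed polysaccharide from Undaria pinnatifida, at 200 mg per kg per day, and 5 from mice gavaged with saline. The titles call each library a biological replicate without saying whether it is a single mouse, so p-values measure the spread between these libraries. The treatment text of the fucoidan libraries names saline, while their titles and characteristics name fucoidan and were followed.

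Red cells carry oxygen on haem iron, which releases superoxide when it oxidises. Superoxide dismutases turn superoxide into hydrogen peroxide, and catalase, glutathione peroxidases and peroxiredoxins remove the peroxide. Peroxiredoxin 2 is among the most abundant proteins of the red cell, and sulfiredoxin restores it when peroxide has overoxidised its active cysteine. Mature red cells keep some of these proteins but make no new RNA, so red cell RNA in blood comes mainly from reticulocytes, the youngest red cells. The same enzymes are also made in leukocytes and platelets, and RNA of a whole preparation does not tell which cell held a transcript.

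The glutathione peroxidases Gpx1 and Gpx4 place selenocysteine in their active site by reading a UGA stop codon within the coding sequence. The annotated codon is number 47 of Gpx1 (transcript ENSMUST00000082429, GRCm38 chr9:108339451-108339453, plus strand) and number 73 of Gpx4 (ENSMUST00000105372, chr10:80054737-80054739, plus strand). The coding sequence around it is shown from the GENCODE M21 transcripts, since it ties both genes to the selenoprotein synthesis list described further on, with the codon in capitals as TGA.
Gpx1: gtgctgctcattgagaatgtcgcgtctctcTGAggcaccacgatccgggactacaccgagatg
Gpx4: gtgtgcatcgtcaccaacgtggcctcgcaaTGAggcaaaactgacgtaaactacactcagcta
Of the 63 bases, 35 are the same in both.

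Promoter sequence was read from RefSeq (GRCm38.p6), whose table matched all 8 genes with 11 start sites, 4 of them for Gpx4. The 250 bases before the start are shown for Prdx2, Srxn1 and Sod1: the first 2 rose with fucoidan, while Sod1 did not. Capitals mark CCNCNCCC, a pattern bound by KLF1, in Prdx2 (chr8:84969372-84969621, plus strand) and Sod1 (chr16:90220512-90220761, plus strand), and TGANTCA, the core bound by AP-1 factors and held in many NRF2 sites, in Srxn1 (chr2:152105274-152105523, plus strand).
Prdx2: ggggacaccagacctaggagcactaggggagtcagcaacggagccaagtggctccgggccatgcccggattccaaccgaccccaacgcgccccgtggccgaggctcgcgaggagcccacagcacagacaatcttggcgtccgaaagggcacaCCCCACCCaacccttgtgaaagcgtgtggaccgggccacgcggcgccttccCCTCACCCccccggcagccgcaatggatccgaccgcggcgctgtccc
Srxn1: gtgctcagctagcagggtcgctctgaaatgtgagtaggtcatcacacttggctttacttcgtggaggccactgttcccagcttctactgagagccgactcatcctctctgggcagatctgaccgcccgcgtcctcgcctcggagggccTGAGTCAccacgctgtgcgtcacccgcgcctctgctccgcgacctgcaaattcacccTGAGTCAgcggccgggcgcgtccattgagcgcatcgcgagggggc
Sod1: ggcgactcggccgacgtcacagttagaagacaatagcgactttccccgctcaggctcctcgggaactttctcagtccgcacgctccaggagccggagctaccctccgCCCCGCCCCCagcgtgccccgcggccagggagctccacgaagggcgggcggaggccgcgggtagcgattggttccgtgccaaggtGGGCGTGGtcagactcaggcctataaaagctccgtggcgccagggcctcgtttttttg
On either strand, CCNCNCCC had 2 matches in Prdx2, and 3 in Sod1 of which 2 overlap. It was present in 7 of the 11 windows of these genes and in 45.9% of 32851 windows of all genes. The windows with it belong to Cat, Gpx4, Prdx2, Sod1 and Sod2, so the count takes several starts of Gpx4. TGANTCA had 2 matches in Srxn1, starting 102 and 45 bases before the start, and was present in 1 of the 11 windows and in 6.75% of all. The pattern AGATAA, which the factor GATA1 binds, was in 0 of the 11 windows and in 9.99% of all. The patterns were picked after the expression values were known, and a match is only a match of letters.

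Libraries held 13061703 to 15798058 counts with fucoidan and 15453636 to 16334932 with saline. Haemoglobin transcripts took 13.5 to 24.1% of counts in the fucoidan libraries and 3.51 to 8.48% in the saline libraries, and the highest share in each group was that of replicate 3. Of 20 erythroid markers tested, 18 rose and 0 fell, and their summed level without haemoglobin was 15150 to 38500 CPM (counts per 1000000, with TMM scaling) with fucoidan and 3119 to 8573 CPM with saline. All 13 platelet markers tested rose, to a summed 8206 to 17550 CPM with fucoidan, against 2699 to 5740 CPM with saline. In the other lists, 10 of 10 natural killer and 4 of 8 nonclassical monocyte markers rose, 9 of 10 B cell and 2 of 10 classical monocyte markers fell, and 0 of 12 T cell and 0 of 12 neutrophil markers passed by edgeR. At an unadjusted p under 0.05 stood 10 T cell and 0 neutrophil markers; DESeq2 called 4 T cell markers higher and 0 neutrophil markers, and limma-voom called 4 and 3 higher. Without fucoidan replicate 3, saline replicate 3 or saline replicate 4 the B cell falls numbered 4, 5 and 5, and without fucoidan replicate 2 or 3 or saline replicate 4 the classical monocyte falls numbered 1. With no filter on low counts 6 platelet and 12 erythroid markers were called. These are measures of RNA: more cells of a type and more RNA per cell cannot be told apart. No defining marker with a row in the table stood at 0 in all libraries, and Ahsp was not analysed here. The erythroid marker Klf1 and the platelet marker Gp1bb were listed but not among the genes tested.

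Of the 8 genes 6 rose after fucoidan (Prdx2, Srxn1, Gpx1, Gpx4, Cat and Glrx5), each at least 2-fold, and 0 fell, with the threshold at 0.05 on the Benjamini-Hochberg adjusted p of edgeR's quasi-likelihood fit. Over all 14723 genes tested, 9.11% rose, 5.41% rose at least 2-fold and 4.65% fell; of all calls 66.2% were rises, against 55.7% with upper-quartile factors and 14.6% without scaling factors. The median log2 fold change of the 8 genes was 1.46, beside -0.04 over all tested genes. Sod1 and Sod2 had log2 fold changes of 0.07 and 0.20 without a call.

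**Figure D1:**
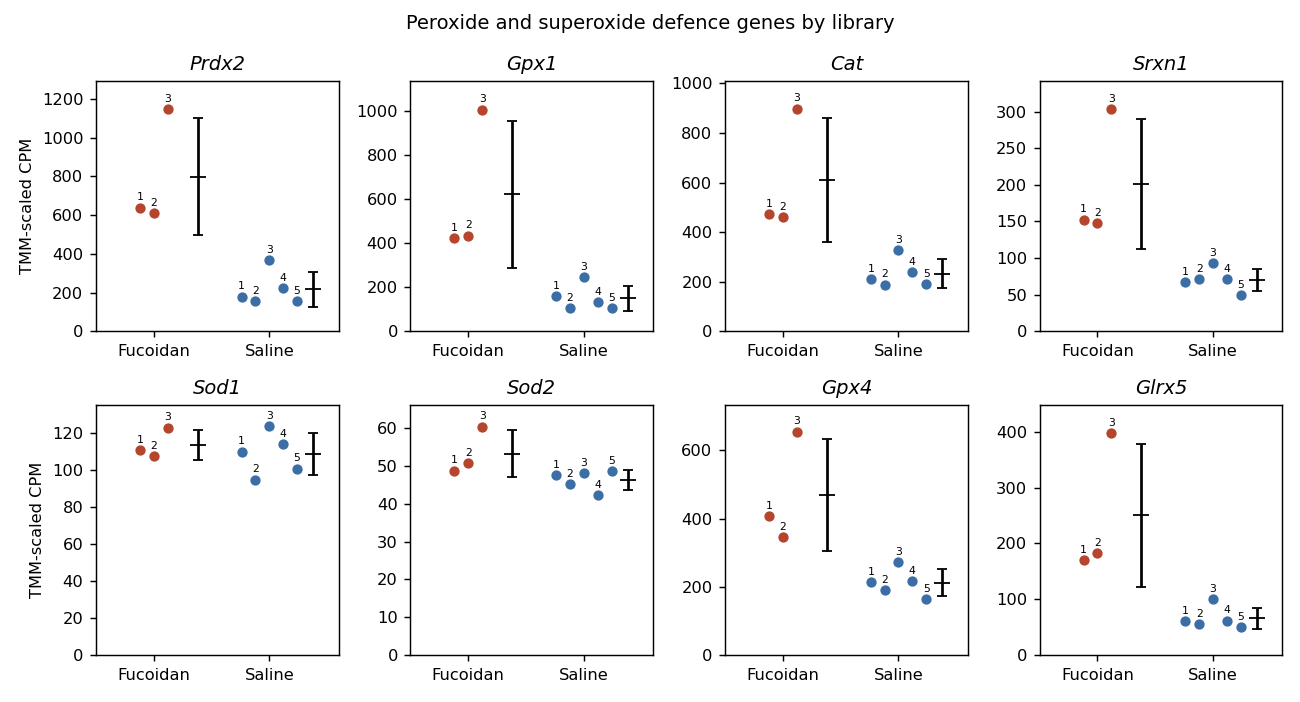
TMM-scaled CPM of each gene (y axis, starting at 0) in the fucoidan libraries (red) and the saline libraries (blue), numbered by replicate, with mean and SD as the black mark and bar (n = 3 and 5). On this TMM scale fucoidan replicate 3 is highest in its group for all 8 genes and the groups overlap only for Sod1. As CPM of total counts that library is the lowest fucoidan one for Sod1 and Sod2. On that second scale the groups overlap for Sod2, and every fucoidan value of Sod1 lies below every saline value.

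Peroxiredoxin 2 and its repair enzyme both rose. Prdx2 (ENSMUSG00000005161, GRCm39 chromosome 8, 85696216 to 85701463, plus strand) had 638, 608 and 1146 CPM in the fucoidan libraries, against 179, 155, 367, 223 and 157 CPM in the saline libraries. The lowest fucoidan library stood above the highest saline library, which was replicate 3. Prdx2 averaged 798 ± 302 CPM with fucoidan (SD, n = 3) and 216 ± 88.6 CPM with saline (SD, n = 5), a 3.69-fold rise (log2 1.88, SE 0.294, adjusted p = 0.00396). The Prdx2 row shares 351 bases with Junb, a transcription factor gene on the opposite strand, and 181 with Rnaseh2a (log2 -0.23, adjusted p = 0.354), and no source used here says whether reads were counted by strand. Junb fell, at 1200 ± 276 CPM with fucoidan (SD, n = 3) and 2249 ± 522 CPM with saline (SD, n = 5; log2 -0.91, SE 0.207, adjusted p = 0.0146).

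Srxn1, which encodes sulfiredoxin (ENSMUSG00000032802, chromosome 2, 151947436 to 151953296, plus strand), had 153, 147 and 304 CPM with fucoidan, against 66.8, 71.0, 92.6, 70.7 and 49.3 CPM with saline. Again the groups did not overlap, and replicate 3 was the highest of each. The rise was 2.87-fold (log2 1.52, SE 0.242, adjusted p = 0.00396).

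Both glutathione peroxidases rose. Gpx1, which uses glutathione to reduce hydrogen peroxide in the cytosol (ENSMUSG00000063856, chromosome 9, 108216102 to 108217542, plus strand), had 423, 434 and 1006 CPM with fucoidan, against 159, 105, 245, 133 and 105 CPM with saline. It had the largest fold change of the 8 genes, at 4.16-fold (log2 2.06, SE 0.328, adjusted p = 0.00396). That rank did not hold without fucoidan replicate 3, where the log2 fold change was 1.533 for Gpx1 and 1.538 for Prdx2. Gpx4, which reduces lipid peroxides in membranes (ENSMUSG00000075706, chromosome 10, 79883000 to 79892273, plus strand), had 407, 347 and 655 CPM with fucoidan, against 213, 191, 272, 217 and 164 CPM with saline. Its rise was 2.22-fold (log2 1.15, SE 0.206, adjusted p = 0.00525), the smallest of the 6 called. An antisense gene that overlaps 1210 bases of Gpx1 had 0 to 2 counts per library.

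Catalase, the haem enzyme that breaks hydrogen peroxide into water and oxygen, also rose. Cat (ENSMUSG00000027187, chromosome 2, 103284194 to 103315505, minus strand) had 473, 461 and 898 CPM with fucoidan, against 210, 188, 329, 239 and 192 CPM with saline. The groups did not overlap, and the rise was 2.64-fold (log2 1.40, SE 0.240, adjusted p = 0.00477).

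Glrx5, a mitochondrial glutaredoxin that passes on iron-sulphur clusters and whose loss in zebrafish stops haem synthesis (ENSMUSG00000021102, chromosome 12, 104998947 to 105009165, plus strand), had 171, 183 and 398 CPM with fucoidan. The saline libraries had 60.8, 55.9, 99.5, 61.6 and 50.0 CPM, so that the highest, replicate 3, stood below every fucoidan library. Glrx5 rose 3.82-fold (log2 1.93, SE 0.283, adjusted p = 0.00396).

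The dismutases differed from these 6 genes. Sod1, the cytosolic copper and zinc enzyme (ENSMUSG00000022982, chromosome 16, 90017642 to 90023217, plus strand), had 111, 108 and 123 CPM with fucoidan, against 110, 94.9, 124, 114 and 101 CPM with saline. All fucoidan values lay within the saline range. Its log2 fold change was 0.07 (SE 0.108, 95% interval -0.17 to 0.30, adjusted p = 0.751), so a rise as large as that of Gpx4 lay outside the interval. The Sod1 row shares 650 bases with Scaf4 on the opposite strand, whose log2 change of -0.13 did not pass (adjusted p = 0.549).

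Sod2, the mitochondrial manganese enzyme (ENSMUSG00000006818, chromosome 17, 13225733 to 13258950, plus strand), had 48.8, 50.7 and 60.4 CPM with fucoidan, against 47.6, 45.2, 48.1, 42.3 and 48.6 CPM with saline. The groups did not overlap, by a margin far below the spread within them, and the log2 fold change of 0.20 did not pass (SE 0.101, 95% interval -0.02 to 0.42, adjusted p = 0.226). Of the 8 genes 7 were thus higher in every fucoidan library than in any saline library, beside 11.6% of all tested genes.

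Without scaling factors the fold changes of all genes shift down together, which turns the sign of small ones. As CPM of the total counts, without TMM factors, Sod1 stood at 101, 102 and 85.6 with fucoidan, against 120, 108, 126, 128 and 118 with saline. Its log2 fold change was then -0.32 and that of Sod2 -0.19, neither called (adjusted p = 0.0837 and 0.272), while the median of all genes shifted by -0.38. On that scale, which was added after the data were seen, the same 6 genes rose, by log2 0.73 for Gpx4 to 1.62 for Gpx1.

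**Figure D2:**
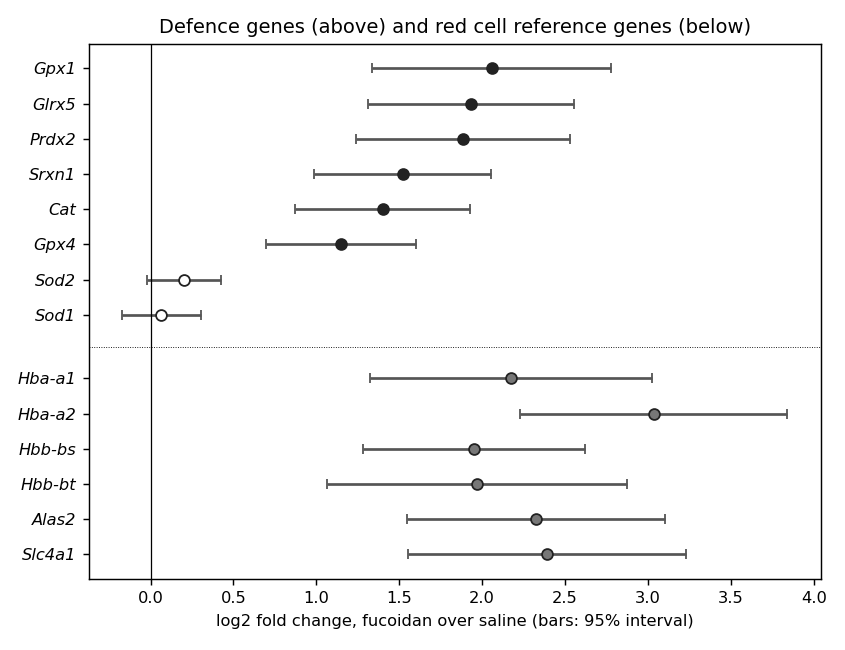
The log2 fold change of fucoidan over saline (x axis) with its 95% interval for the 8 defence genes, ordered by size, and below the dotted line for 4 globin genes, Alas2 and Slc4a1. Filled points, black for defence genes and grey for red cell genes, passed the test at an adjusted p under 0.05, and Sod1 and Sod2, at 0.07 and 0.20, are open; all 6 red cell genes lie at 1.95 or above.

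On the TMM scale, fucoidan replicate 3 was the highest fucoidan library for all 8 genes, and saline replicate 3 was the highest saline library for 7, the exception being Sod2. As CPM of total counts this held for the 6 genes that rose, but not for the dismutases: fucoidan replicate 3 was the lowest fucoidan library for Sod1 (85.6, beside 101 and 102) and Sod2 (42.0, beside 44.6 and 47.8). The replicates 3 are the libraries with the highest haemoglobin share of their group, 24.1% and 8.48%. With both left out, a choice made after the data were seen, the 6 genes were still called, at log2 0.95 for Gpx4 to 1.82 for Prdx2. Centred on each gene's mean over the 8 libraries, Prdx2 stood at 0.13 in saline replicate 3 and between -1.11 and -0.59 in the other saline libraries. The part of red cell content in these differences was not tested.

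**Figure D3:**
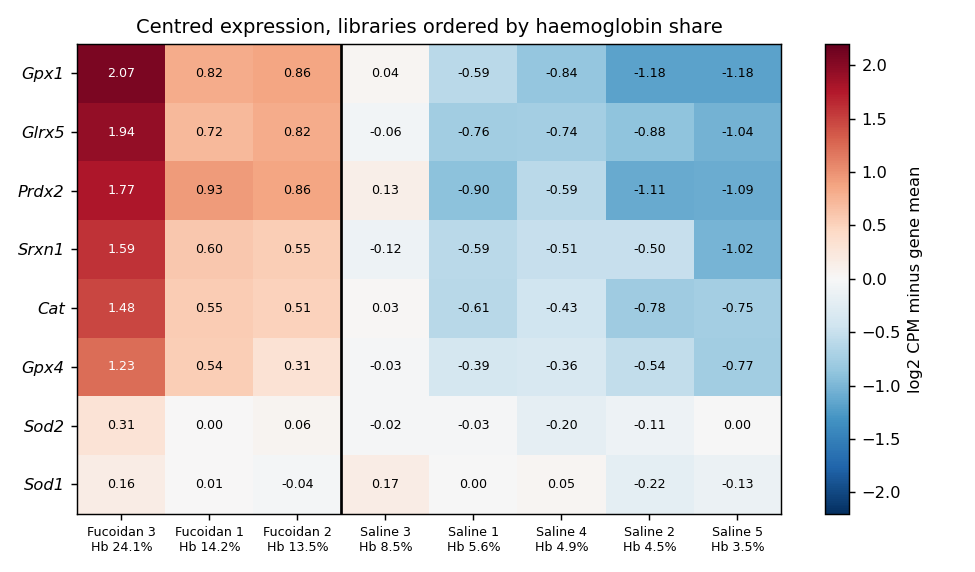
Log2 CPM of each gene minus its mean over the 8 libraries (colour and printed value), with fucoidan libraries on the left, saline libraries on the right, and libraries in each group ordered by the share of counts in haemoglobin transcripts (Hb). The 6 genes that rose run from at least 1.23 in fucoidan replicate 3 to -0.75 or lower in saline replicate 5, while Sod1 and Sod2 stay between -0.22 and 0.31.

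The profiles of the 8 genes were compared with each other. Likeness was measured as the root mean square difference between centred log2 profiles over the 8 libraries, where 0 means the same profile. Among the 6 genes that rose, the 15 pairs differed by 0.15 to 0.49, and the closest were Gpx1 with Glrx5 at 0.15, Cat with Srxn1 at 0.16 and Prdx2 with Glrx5 at 0.16. Prdx2 and Srxn1 were 0.31 apart. Sod1 and Sod2 were 0.14 apart and 0.52 to 1.02 from the other 6. The profiles hold the group difference behind the calls, so a distance between called and uncalled genes follows from the calls. The gap was also narrow: Gpx1 and Gpx4 were 0.49 apart, and Sod2 and Gpx4 were 0.52 apart.

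Among 11183 other protein-coding genes, Prdx2 was closest to Hagh, a glyoxalase that regenerates glutathione (0.080), followed by the spermine oxidase gene Smox (0.096) and the spindle protein gene Nusap1 (0.096). Gpx1 was closest to St3gal5, a ganglioside synthase (0.117), to the ubiquitin ligase gene Mkrn1 (0.117) and to Hba-a1, an alpha globin (0.127). The nearest genes of Glrx5 were Slc48a1, a haem transporter (0.051), Marchf2 (0.067) and the proteasome activator gene Psme3 (0.073). Near Cat lay Ppp1cb, a phosphatase subunit gene (0.052), and the autophagy gene Gabarapl1 (0.058). Srxn1 lay nearest to Parvb (0.048), Ccdc92 (0.059) and Alox12, the platelet lipoxygenase (0.061), and Gpx4 to the heparanase gene Hpse (0.034), Hacd4 (0.037) and Cyb5a, cytochrome b5 (0.061). The neighbours were picked on the libraries that hold the group difference, so their own fold changes follow from the choice. Sod1 lay nearest to Aup1 (0.044), Supt4a (0.049) and Plekha2 (0.058), and Sod2 to Rasal3 (0.048), Otud6b (0.053) and Trir (0.059).

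Each gene was next set against haemoglobin RNA, by the log2 ratio of its counts to the summed counts of Hba-a1, Hba-a2, Hbb-bs and Hbb-bt in the same library, which needs no scaling. The groups overlapped for Prdx2, Gpx1 and Glrx5. For Prdx2 the log2 ratio was -8.02 ± 0.196 with fucoidan (SD, n = 3) and -7.84 ± 0.251 with saline (SD, n = 5; difference -0.18, exact two-sided permutation p = 0.357). For Gpx1 it was -8.44 ± 0.0741 with fucoidan and -8.37 ± 0.147 with saline (difference -0.07, exact p = 0.5), and for Glrx5 the difference was -0.21 (exact p = 0.143). These small differences moved with the libraries used. With 1 left out they ran from -0.26 to -0.06 for Prdx2, -0.12 to -0.02 for Gpx1 and -0.27 to -0.14 for Glrx5. With the replicate block, which took replicates 1 to 3 of each group, the differences were -0.015, 0.0012 and -0.099. With 3 against 5 libraries, these tests do not show that the ratios were equal.

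The other 5 genes rose less than haemoglobin, or not at all, and their ratios were lower in every fucoidan library than in any saline library. Haemoglobin itself rose while the median tested gene had a log2 fold change of -0.04, so a gene without change also has a lower ratio. The separation is thus not particular to these genes, and its share over all genes was not counted. The ratio of Cat was -8.41 ± 0.161 with fucoidan (SD, n = 3) and -7.69 ± 0.288 with saline (SD, n = 5), a difference of -0.72. Srxn1 differed by -0.61 and Gpx4 by -0.96, while Sod1 and Sod2 differed by -2.01 and -1.88. Each of these 5 had an exact two-sided permutation p of 0.0357, the smallest that 56 arrangements give. Adjusted over 11 ratios it was 0.0561, which misses the 0.05 threshold. That adjusted value depends on how many of the 11 ratios share the smallest p, not on the size of a difference. Against 6 erythroid genes other than haemoglobin the differences were -0.98 for Cat, -0.87 for Srxn1, -1.22 for Gpx4, -0.43 for Prdx2, -0.33 for Gpx1 and -0.47 for Glrx5.

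**Figure D4:**
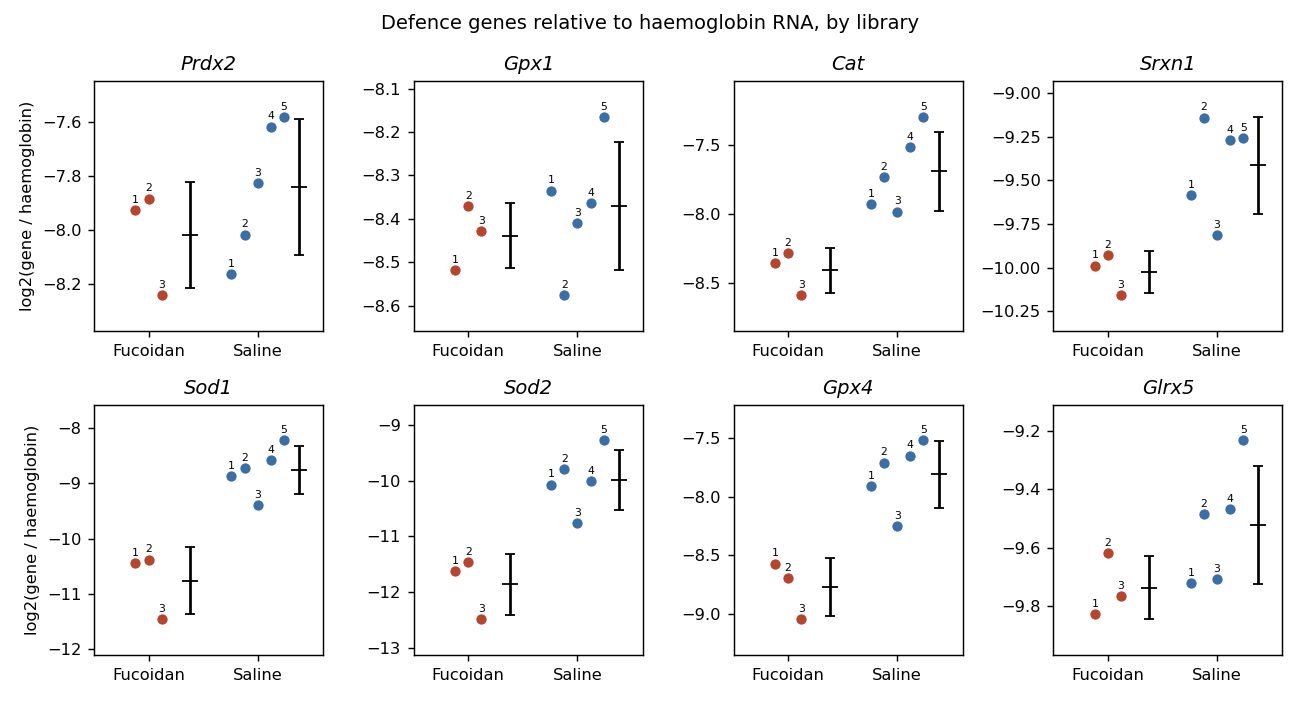
Log2 ratio of each gene's counts to summed haemoglobin counts (y axis, its own range for each gene) in fucoidan (red) and saline (blue) libraries, numbered by replicate, with mean and SD in black. The groups overlap for Prdx2, Gpx1 and Glrx5, and do not for Cat, Srxn1, Gpx4, Sod1 and Sod2.

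Related enzymes were compared with each other in the same way. The log2 ratio of Prdx2 to Prdx1, a peroxiredoxin abundant in nucleated cells, was 2.82, 2.93 and 3.87 in the fucoidan libraries, against 0.59, 1.02, 2.19, 1.498 and 0.95 in the saline libraries. That is a difference of 1.96, with all 3 fucoidan libraries above the 5 saline libraries (exact two-sided permutation p = 0.0357, adjusted p = 0.0561). Gpx1 to Gpx4 was 0.06, 0.33 and 0.62 with fucoidan, against -0.42, -0.87, -0.15, -0.71 and -0.64 with saline, a difference of 0.89 at the same p-values. Sod2 to Sod1 overlapped between the groups, at -1.10 ± 0.0794 with fucoidan (SD, n = 3) and -1.23 ± 0.170 with saline (SD, n = 5; exact p = 0.286, adjusted p = 0.349).

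Levels of different genes were compared per kilobase of the gene length given in the count table. With fucoidan the order from the top was Gpx1 at 431 ± 232, Gpx4 at 272 ± 94.8, Prdx2 at 261 ± 99.1, Cat at 234 ± 95.4, Srxn1 at 71.3 ± 31.5, Glrx5 at 68.0 ± 34.7, Sod1 at 28.7 ± 2.05 and Sod2 at 5.33 ± 0.622 CPM per kilobase (SD, n = 3). With saline it was Gpx4 at 123 ± 23.2, Gpx1 at 104 ± 40.2, Cat at 88.6 ± 22.2, Prdx2 at 70.9 ± 29.0, Sod1 at 27.4 ± 2.86, Srxn1 at 24.9 ± 5.47, Glrx5 at 17.8 ± 5.30 and Sod2 at 4.63 ± 0.260 CPM per kilobase (SD, n = 5). Neighbours among the first 4 differed by less than the larger of their SDs in the saline libraries, as did Sod1 and Srxn1. The same held with fucoidan for all neighbours among the first 4 and for Srxn1 and Glrx5. These SDs are between libraries, and within single libraries the order was steadier. Of the 5 saline libraries, Gpx4 lay above Gpx1 in 4, Gpx1 above Cat in 4, Cat above Prdx2 in 5 and Sod1 above Srxn1 in 3. In all 3 fucoidan libraries Gpx1 lay above Gpx4, Gpx4 above Prdx2 and Prdx2 above Cat, while Srxn1 lay above Glrx5 in 2. Sod1 thus ranked the fifth with saline and the seventh with fucoidan at nearly the same level. The length of a row can count bases of transcripts not made in blood, which lowers its value, as in the 10008 bases of Sod2.

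Around these genes, 9 lists of related functions held 75 tested genes, of which 14 rose and 2 fell. That is 18.7% risen, beside 9.11% of all tested genes, and the median log2 fold change was -0.09. Other peroxide-removing enzymes rose in 2 of 9 cases, with a median of -0.07. Prdx6, a peroxiredoxin that also acts on phospholipids, had 358, 288 and 500 CPM with fucoidan, against 186, 173, 250, 196 and 163 CPM with saline, without overlap (log2 0.98, SE 0.181, adjusted p = 0.00581). Mgst3, a membrane glutathione transferase, rose by log2 1.04 from a low level (5.75 ± 0.990 CPM with fucoidan, SD, n = 3, and 2.79 ± 0.494 CPM with saline, SD, n = 5), and without fucoidan replicate 3 its adjusted p was 0.0522, so that 1 gene rose. Prdx1, Prdx3 and Prdx5 had log2 changes of -0.07, 0.28 and 0.22, and Prdx4 of -0.50, without a call. Mgst1, Gpx3 and Mgst2, with -0.60, -0.41 and -0.31, were not called either. Of these uncalled genes Prdx4 and Mgst1, both lower with fucoidan, stood at an unadjusted p under 0.05 by edgeR.

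Genes that handle copper or supply reducing power moved unevenly. Of 3 copper-handling genes listed as dismutase partners Atox1, a copper chaperone, rose by log2 1.03 (SE 0.161, adjusted p = 0.00396). Ccs, the chaperone that loads copper on Sod1, had 0.29 without a call. In the thioredoxin and glutaredoxin list 1 of 14 rose, with a median of -0.04. That gene was Txnrd2, the mitochondrial thioredoxin reductase, at 40.4 ± 10.4 CPM with fucoidan (SD, n = 3) and 19.2 ± 4.05 CPM with saline (SD, n = 5; log2 1.07, SE 0.191). Txnrd1, its cytosolic relative, had a log2 change of 0.10 without a call.

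In glutathione synthesis and reduction 2 of 8 genes rose, with a median of 0.09. Gclm, the regulatory subunit of the enzyme that starts glutathione synthesis, had 185, 183 and 486 CPM with fucoidan, against 87.7, 79.4, 118, 76.0 and 51.7 CPM with saline (log2 1.79, SE 0.322, adjusted p = 0.00533). Its catalytic partner Gclc did not pass (log2 0.30, adjusted p = 0.0734), nor did the glutathione reductase gene Gsr (log2 -0.02). Chac2, which degrades glutathione, rose by log2 1.34 (SE 0.259). With no filter on low counts Gclm was not called (adjusted p = 0.0615), which left 1 gene risen.

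The supply of NADPH, which the reductases spend, had 1 rise and 1 fall among 11 genes, with a median of -0.07. Taldo1, transaldolase of the pentose phosphate pathway, rose by log2 0.98 (901 ± 286 CPM with fucoidan, SD, n = 3, and 455 ± 75.5 CPM with saline, SD, n = 5). Pgls, the lactonase of the same pathway, fell by 0.52 on the log2 scale (adjusted p = 0.0287), a call that ended when any of 4 libraries was left out: fucoidan replicate 2 (adjusted p = 0.108), fucoidan replicate 3 (0.113), saline replicate 3 (0.0557) or saline replicate 4 (0.0613). G6pdx, the entry enzyme, had a log2 change of 0.14 without a call.

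Iron-sulphur cluster assembly, the setting of Glrx5, had 5 rises and 0 falls among 14 genes, with a median of -0.12. Isca1, a late-acting assembly factor, had 782, 951 and 2055 CPM with fucoidan, against 275, 244, 477, 287 and 187 CPM with saline, without overlap (log2 2.10, SE 0.329, adjusted p = 0.00396). The scaffold gene Iscu rose by log2 1.56 (SE 0.245), Bola3 by 1.33 (SE 0.237) and the co-chaperone gene Hscb by 1.27 (SE 0.227). The fifth riser was Slc25a37, the mitochondrial iron importer, at log2 1.33, named here after its value was seen. The cysteine desulphurase gene Nfs1, the chaperone gene Hspa9 and Isca2 had log2 changes of -0.16, 0.13 and -0.28 without a call.

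Selenoprotein synthesis, on which the UGA codons of Gpx1 and Gpx4 depend, had 0 calls among 7 genes by edgeR, with a median of -0.21. At an unadjusted p under 0.05 stood Eefsec, the elongation factor for selenocysteine (log2 -0.39, adjusted p = 0.0650), and Trnau1ap (log2 -0.34, adjusted p = 0.152). DESeq2 and limma-voom also called 0, whereas with upper-quartile factors Eefsec fell (log2 -0.44, adjusted p = 0.0346), and without scaling factors 4 of the 7 fell. Genes of the NADPH oxidase, which makes superoxide in phagocytes, had 0 rises and 1 fall among 6, with a median of -0.25. Ncf1, its organiser subunit, had 148, 131 and 117 CPM with fucoidan, against 260, 183, 211, 222 and 221 CPM with saline, without overlap (log2 -0.74, SE 0.130, adjusted p = 0.00518). With upper-quartile factors or DESeq2 3 of these genes fell, and without scaling factors 6. Of 3 genes of methaemoglobin reduction, which returns oxidised haem iron to its working state, Blvrb rose by log2 1.66 (SE 0.262) and Cyb5a by 1.15 (SE 0.185), while Cyb5r3 had 0.22 without a call.

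**Figure D5:**
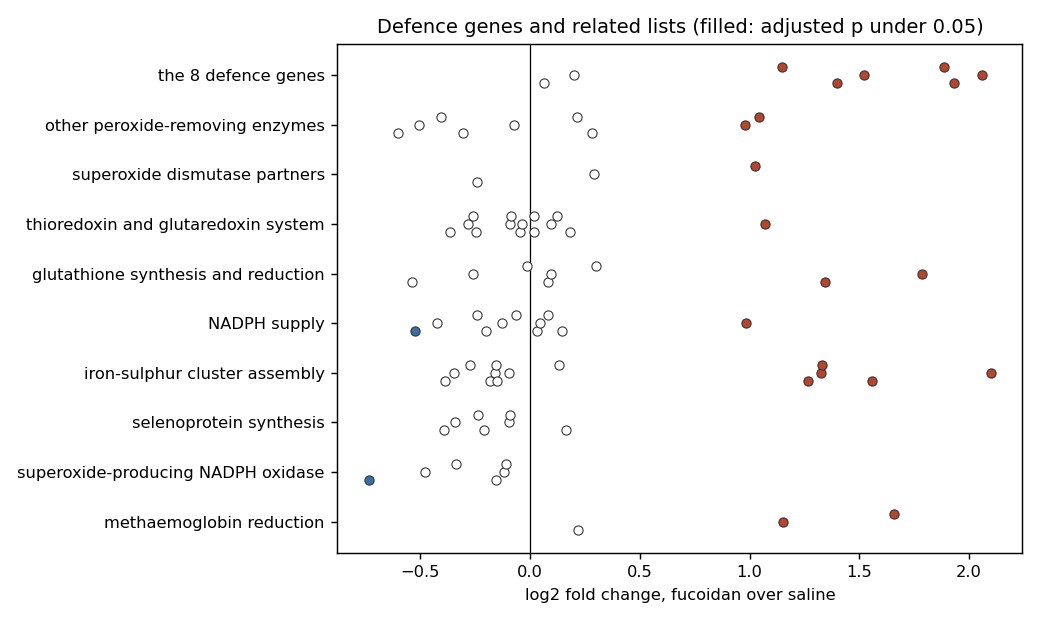
The log2 fold change of fucoidan over saline (x axis) of each tested gene in the 8 defence genes and the 9 related lists; red points rose and blue points fell at an adjusted p under 0.05, open points did not pass, and vertical offsets within a row have no meaning. The 6 risen defence genes lie between 1.15 and 2.06, and the iron-sulphur list holds 5 red points beside 9 open ones.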

How the data were processed

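Poly(A) RNA was sequenced as paired reads, 2 of 150 bases. The authors deposited raw whole-number counts per gene, with gene length and GRCm39 coordinates. Per the submitters' processing notes, cutadapt 4.0, Trimmomatic 0.39 and HISAT2 2.2.1 were used; the sources used here name no counting program, annotation release or strand setting. The gene length unit (other) is that of the deposited table.

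Genes passing filterByExpr (14723) were tested with edgeR 4.0.16 (R 4.3.3), TMM factors and the robust quasi-likelihood test, with Benjamini-Hochberg adjustment over all of them. SE is the absolute log2 fold change over the square root of F. Profiles are log2(CPM + 0.5). Ratios were tested by exact permutation (scipy 1.17.1), adjusted over 11. The procedures were tested on simulated data. Named genes are the 8 members, up to 4 called genes of each list with the smallest p (1 or 2 where none was called), the red cell reference genes and 3 nearest profiles per member, of which 1 is not reported here. Members and lists were chosen with earlier results of these data known. Member counts ran from 549 to 10417 per library. No libraries were duplicates, and 1 batch date covers all.

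Replicate numbers come from the titles, which do not say that equal numbers mark a pair. With group means removed, libraries of both groups sharing a number correlated at 0.191, 0.248 and 0.190. Those with different numbers ran from -0.278 to 0.176. Saline replicates 4 and 5 share no number with a fucoidan library, so the replicate block compares the groups within 3 shared numbers. Alternatives were other scaling factors, DESeq2 1.42.0, limma-voom (limma 3.58.1), other filters, the replicate block and leaving out each library.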

Additional observations from a re-analysis of the deposited data

Results flagged for a closer look

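Of 20 measures over the 5 saline libraries, 1 had a library standing apart from the rest, where chance gives about 1 in 20. Glrx5 stood at 99.47 CPM in saline replicate 3, with the next saline library at 61.6 CPM, a gap of 0.765 of the saline range against a critical value of 0.71. That library also had the highest haemoglobin share of the saline group, at 8.48%. Without it Glrx5 was still called, at a log2 fold change of 2.14.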

How the results depend on the processing

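The 6 rises among the 8 defence genes kept their direction and call in all 16 planned settings and in both added after the data were seen (no scaling factors; fucoidan replicate 3 and saline replicate 3 both left out), with adjusted p up to 0.0412 over the planned ones. Leaving out 1 library at a time gave log2 fold changes of 1.54 to 2.16 for Prdx2, 1.53 to 2.31 for Gpx1, 1.02 to 1.57 for Cat, 1.11 to 1.70 for Srxn1, 0.84 to 1.33 for Gpx4 and 1.44 to 2.15 for Glrx5. The fit with the replicate block changed no call among the 8 genes; over all genes it called 439 lower, and limma-voom 1063, against 684. Leaving out 1 library gave 928 to 2224 calls, 746 to 1368 higher and 182 to 856 lower, lowest without fucoidan replicate 3; with both replicates 3 left out there were 979 calls, 836 higher and 143 lower. Upper-quartile factors gave 1241 higher and 989 lower. Of the globin genes used as reference, Hbb-bt was not called by edgeR without fucoidan replicate 3 (log2 1.49, adjusted p = 0.0855). With no filter on low counts Hbb-bt (log2 1.95, adjusted p = 0.0995) and Hba-a1 (log2 2.15, adjusted p = 0.0554) were not called.

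Without scaling factors there were 5563 calls, 810 higher and 4753 lower, with the median gene shifted by -0.38. The log2 fold change then turned to -0.32 for Sod1, -0.19 for Sod2, -0.34 for Aup1, -0.29 for Supt4a, -0.35 for Plekha2, -0.18 for Rasal3, -0.27 for Otud6b and -0.25 for Trir. Falls in the lists were then 3 of other peroxide-removing enzymes, 1 dismutase partner, 6 thioredoxin, 2 glutathione, 3 NADPH supply, 7 iron-sulphur, 4 selenoprotein and 6 NADPH oxidase genes. Aup1 also turned at -0.0053 (upper-quartile factors) and -0.00069 (replicate block), and ranged from -0.017 to 0.11 with 1 library left out. Plekha2 turned at -0.018 (upper-quartile factors) and -0.0044 (limma-voom), and ranged from -0.010 to 0.062. NADPH oxidase falls numbered 3 with upper-quartile factors or DESeq2, 2 with limma-voom, no filter, at least 10 counts in every library or the replicate block, and 1 to 2 with 1 library left out. Selenoprotein falls numbered 1 (Eefsec) with upper-quartile factors, and glutathione rises 1 with no filter. With 1 library left out, other peroxide-removing enzymes had 1 to 2 rises and 0 to 1 falls and NADPH supply 0 to 1 falls, and NADPH supply had 0 falls with both replicates 3 left out. The cause of these changes was not tested.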
